A study of Homo sapiens with 12 samples.

Results

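TCHH, MADCAM1 and UTP3 are 3 protein-coding genes whose transcripts stood higher in RNA recovered with tagged RPL12 than in the ribosome fraction it was recovered from. They are 3 of the 57820 Ensembl gene identifiers in the tables, ENSG00000159450.8, ENSG00000099866.10 and ENSG00000132467.2, and were selected on the measured log2 change of IP over input in these same libraries. Those rises are therefore given as a description, without a test. Among the 991 genes that were called higher (adjusted p under 0.05 in edgeR's quasi-likelihood test), averaged at least 5 CPM (read counts scaled by library total) and had all IP libraries above all inputs, TCHH ranked 1, MADCAM1 2 and UTP3 4 by log2 change. ENSG00000138778.7, which is no member, ranked 3 with a log2 change of 2.25, between 2.41 for MADCAM1 and 2.18 for UTP3, and the gene at rank 5 stood at 2.00. Counted over all 16920 genes tested, low counts included, the 3 genes ranked 4, 7 and 12.

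The study took monosomal (80S) fractions of sucrose gradients from HEK293, a long-established cell line of human embryonic kidney, and sequenced polyadenylated RNA. Flp-In T-Rex derivatives stably overexpressed RPL12 with a FLAG/HA tag, selected with hygromycin as monoclonal colonies, in the S38A form (serine replaced by alanine), the S38D form (serine replaced by aspartate) or the WT form. An IP library holds RNA recovered with anti-FLAG M2 antibody from a fraction, and an input library holds RNA of an aliquot of that fraction, all kept in cycloheximide. The 6 groups are S38A IP, S38A input, S38D IP, S38D input, WT IP and WT input, with 2 libraries each and all 3 lines carrying a tagged transgene. No IP from cells without tagged RPL12 was analysed here, so recovery through the tagged ribosome and any other route to the beads, such as binding of a nascent chain by the antibody, cannot be told apart. Form and line coincide as well, and no label states separate cultures for the replicates, so errors and p-values cover only the spread between these libraries.

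RPL12 (uL11) sits in the large ribosomal subunit at the base of the P-stalk, where translation factors dock. An mRNA in an 80S fraction is usually bound by a single ribosome, and an IP through a ribosomal protein recovers mRNAs with the ribosomes they carry. TCHH encodes trichohyalin, a long, highly charged structural protein of the hair follicle's inner root sheath and medulla that is deiminated and crosslinked as it matures. MADCAM1 encodes mucosal addressin cell adhesion molecule, an immunoglobulin-superfamily protein of gut endothelium that binds integrin alpha-4 beta-7 on lymphocytes. UTP3 (SAS10) encodes a charged nucleolar protein of the small-subunit processome, which assembles on pre-rRNA early in the making of the small ribosomal subunit.

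The promoters of the 3 genes are shown because the genes differ in how widely they are known to be used, TCHH and MADCAM1 in few cell types and UTP3 in most. Each line gives the 100 bases before the annotated start from RefSeq (GRCh38.p14), 5′ to 3′ on the gene's strand, with TATAAA or CGGAAG in capitals. The 2 motifs were picked after these sequences were seen.
TCHH: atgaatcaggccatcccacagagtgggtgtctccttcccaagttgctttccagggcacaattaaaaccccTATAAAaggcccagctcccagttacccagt
MADCAM1: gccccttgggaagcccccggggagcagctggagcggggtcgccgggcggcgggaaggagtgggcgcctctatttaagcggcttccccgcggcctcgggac
UTP3: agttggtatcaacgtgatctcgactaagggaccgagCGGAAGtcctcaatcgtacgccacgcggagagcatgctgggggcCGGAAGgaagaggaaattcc
The windows lie at chr1:152115445-152115544 on the minus strand, chr19:496386-496485 on the plus strand and chr4:70688432-70688531 on the plus strand. TATAAA, the core of the TATA box, began 30 bases before the TCHH start, and 5.34% of the 27305 promoters of the table held it on either strand in the same window. CGGAAG, the core bound by ETS-family factors, occurred 2 times before the UTP3 start, and 10.4% of promoters held it. Over 250 bases before the start the ratio of observed to expected CpG was 0.126 for TCHH, 0.582 for MADCAM1 and 1.12 for UTP3, against a median of 0.556 over the table. CAAT and GGGCGG were counted too and are not marked. CAAT occurred 1 time each in the TCHH and UTP3 windows, and 38.1% of promoters held it. GGGCGG occurred 1 time in the MADCAM1 window, and 31.3% of promoters held it. Only exact matches were counted, so looser variants of a motif are left unmarked. These matches describe the windows only. In RefSeq no annotated gene overlaps TCHH or UTP3, while the lncRNA gene MADCAM1-AS1 overlaps MADCAM1. How the counting treated strand is not stated in the labels or notes, so reads of MADCAM1 and of its antisense partner cannot be told apart in the counts.

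IP libraries held 3186164 to 7430881 gene counts and input libraries 7434431 to 8723130. All 3 members passed the filter on low counts, and TCHH and MADCAM1 did so at low depth. TCHH summed to 229 counts over the 6 IP libraries and 84 over the 6 inputs. MADCAM1 summed to 262 counts in IP and 101 in input, and UTP3 to 8447 in IP and 3777 in input. ERCC spike-in RNA took 1.44% to 5.43% of counts in IP and 0.116% to 0.484% in input. Over the 3 lines 2690 of 16920 genes were called higher in IP, 2688 were called lower, and the median log2 change of all genes tested was -0.04. Scaled to total counts, 1298 were called higher and 5251 lower, with a median of -0.25, and the members changed by 2.28 for TCHH, 2.19 for MADCAM1 and 1.96 for UTP3.

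TCHH was low in every 80S fraction and higher in the matched IP. In S38A IP it stood at 4.79 and 8.78 normalised CPM (29 and 68 counts), against 1.16 and 3.09 CPM in S38A input (11 and 30 counts). In S38D IP it stood at 5.71 and 7.64 CPM (23 and 25 counts), against 1.09 and 1.83 CPM in S38D input (10 and 16 counts). In WT IP it stood at 21.3 and 6.07 CPM (56 and 28 counts), against 0.994 and 1.05 CPM in WT input (9 and 8 counts). The first WT IP library was far above the other IP libraries of TCHH, whereas the highest input was the second S38A library, which also had the second highest IP value. The groups did not overlap. TCHH averaged 9.05 ± 6.16 CPM in IP and 1.54 ± 0.820 in input (SD, n = 6 each), with a fitted log2 change of 2.51 (SE 0.37). Without the first WT IP library the log2 change was 2.12, and the mean over the remaining 11 libraries was 3.84 CPM. Its place at the head of the ranking therefore rests on that library, since 5.29 CPM over all 12 libraries passes the minimum of 5 and 3.84 does not. Without the second S38A IP library the mean was 4.97 CPM, also under that minimum.

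MADCAM1 was likewise a low transcript in input, with IP values that lay closer to the inputs. In S38A IP it stood at 6.44 and 3.75 normalised CPM (39 and 29 counts), against 0.953 and 1.65 CPM in S38A input (9 and 16 counts). In S38D IP it stood at 15.6 and 6.11 CPM (63 and 20 counts), against 2.41 and 0.798 CPM in S38D input (22 and 7 counts). In WT IP it stood at 20.1 and 12.6 CPM (53 and 58 counts), against 3.65 and 1.83 CPM in WT input (33 and 14 counts). The groups did not overlap, but only just: the lowest IP library, the second of S38A at 3.75 CPM, was barely above the highest input, the first of WT at 3.65 CPM. In S38D and in WT the first fraction was the higher one in both IP and input. MADCAM1 averaged 10.8 ± 6.40 CPM in IP and 1.88 ± 1.05 in input (SD, n = 6 each), a fitted log2 change of 2.41 (SE 0.34).

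UTP3 was well covered, and its IP and input values did not overlap. In S38A IP it stood at 178 and 114 normalised CPM, against 65.5 and 46.5 CPM in S38A input. In S38D IP it stood at 354 and 513 CPM, against 74.0 and 82.4 CPM in S38D input. In WT IP it stood at 690 and 338 CPM, against 71.5 and 86.5 CPM in WT input. The 6 inputs lay between 46.5 and 86.5 CPM, whereas the IP libraries spread more widely, from 114 to 690 CPM, and both were lowest in S38A. UTP3 averaged 365 ± 213 CPM in IP and 71.1 ± 14.2 in input (SD, n = 6 each), a fitted log2 change of 2.18 (SE 0.19). Of the genes tested, 6.15% had all 6 IP libraries above all 6 inputs, 15.9% were called higher and 1.92% were called at least 2-fold higher. The choice of the 3 members used that contrast, so nothing follows from their own places in these shares.

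**Figure D1:**
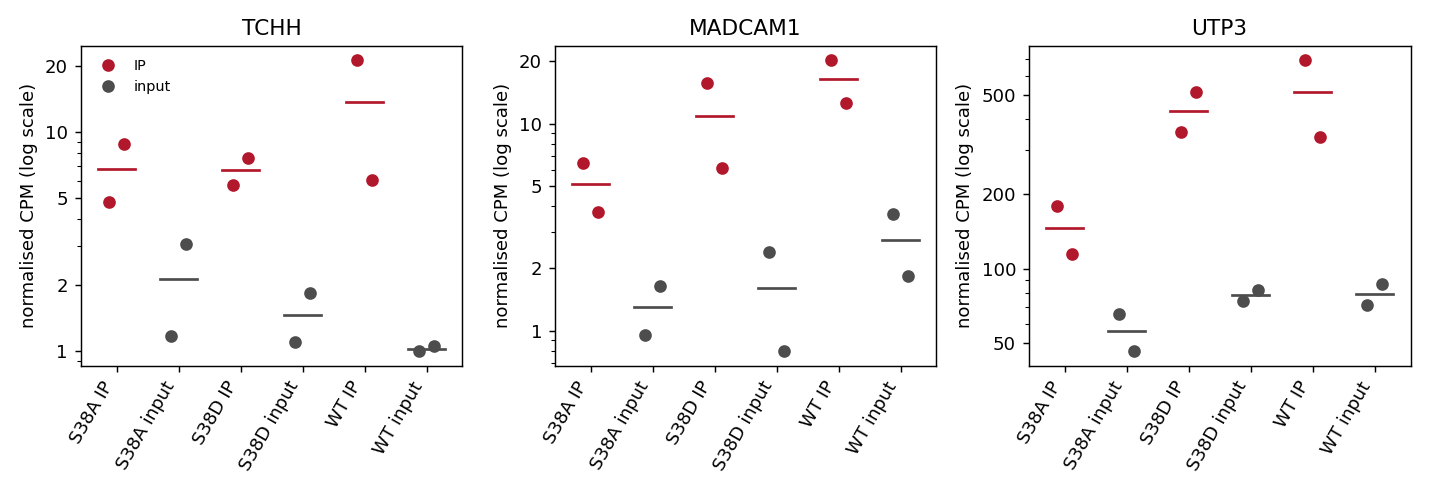
Normalised CPM (log scale) of TCHH, MADCAM1 and UTP3 in each library, with IP in red and input in grey. Points are libraries and bars are group means (n = 2). IP lies above input in every line, the WT IP libraries of TCHH stand far apart at 21.3 and 6.07 CPM, and the S38A IP libraries of UTP3 are the lowest of its IP libraries.

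The biological coefficient of variation, the spread between replicates beyond counting error, was wide for the members. It was 39.3% for TCHH, 36.8% for MADCAM1 and 22.2% for UTP3, where the trend at their abundance was 28.0%, 27.0% and 14.5%. The 3 genes thus varied more between replicates than the trend for genes of like abundance. How many of the genes tested also lay above the trend was not counted, so this is not read as particular to the members.

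**Figure D2:**
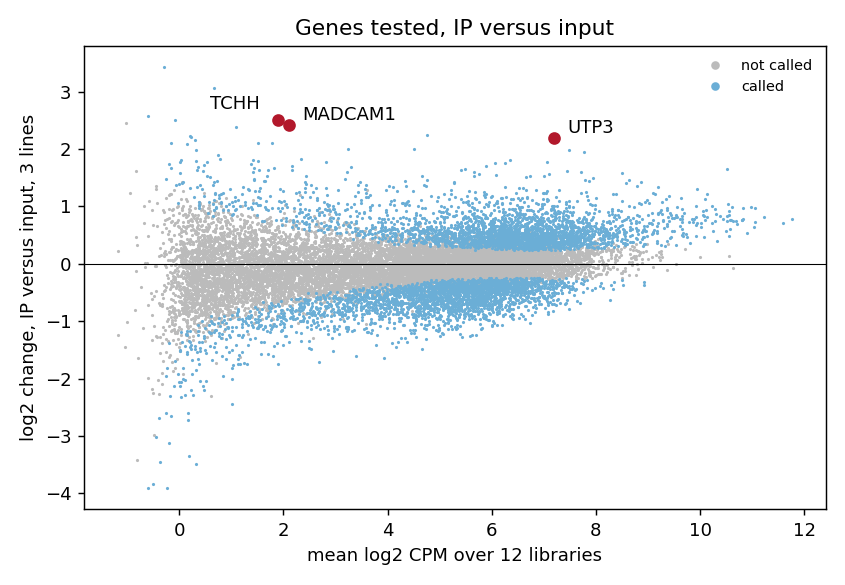
Log2 change of IP versus input over the 3 lines against mean log2 CPM, one point for each of the 16920 genes tested, blue where called. TCHH (2.51) and MADCAM1 (2.41) lie among low transcripts, and UTP3 (2.18) lies at higher abundance above nearly all genes of its level.

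Within single fractions, IP over input was above 1 for each gene in 6 of 6 fractions, and so was the lower bound of its exact 95% interval for counting error. The members were chosen for this rise in the same libraries, so ratios and bounds above 1 are a description and no test. For TCHH the ratio was 4.11 and 2.84 in the S38A fractions, 5.21 and 4.19 in S38D, and 21.4 and 5.80 in WT. The first WT fraction had an interval of 10.5 to 49.2, which did not overlap those of both S38A fractions and the second S38D fraction, and the other 12 of the 15 pairs of fractions overlapped. For MADCAM1 the ratio was 6.76 and 2.27 in S38A, 6.49 and 7.66 in S38D, and 5.53 and 6.86 in WT. All 15 pairs of its intervals overlapped, which does not show that the fractions were alike. The second S38A fraction was the lowest, at 2.27 (1.19 to 4.48), and its ratio lay well below the other 5 although its interval overlapped theirs. For UTP3 the ratio was 2.72 and 2.46 in S38A, 4.79 and 6.23 in S38D, and 9.66 and 3.91 in WT. Only 1 of its 15 pairs overlapped, that of the S38A fractions, so the spread between the other UTP3 fractions was larger than counting error. These intervals treat reads as independent molecules.

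**Figure D3:**
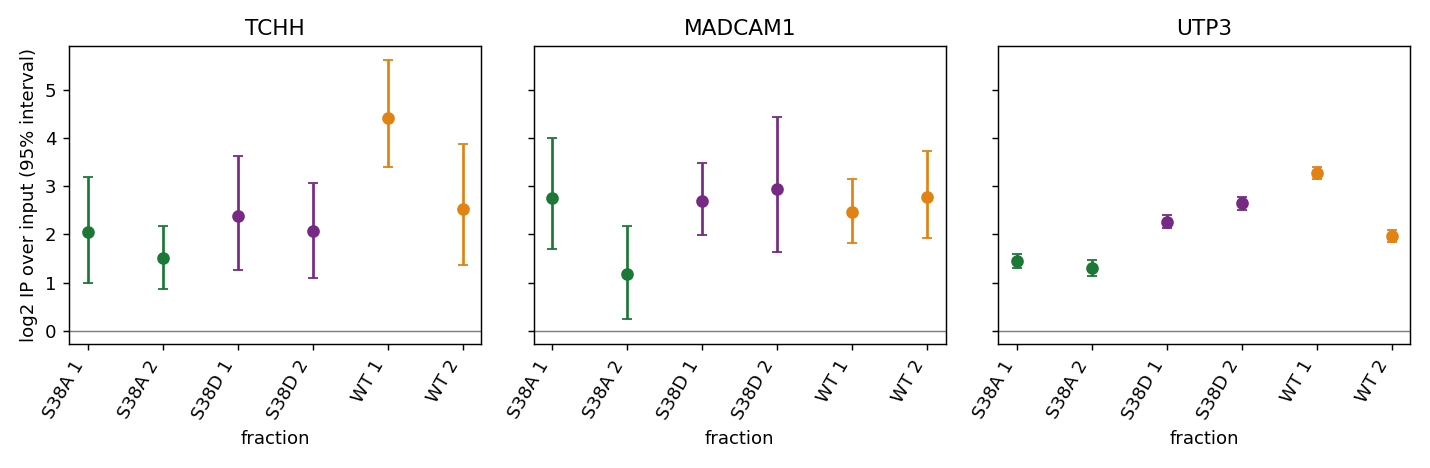
Log2 ratio of IP over input in each of the 6 fractions, with exact 95% intervals for counting error. All intervals lie above 0, for genes chosen on this rise. They are wide for TCHH and MADCAM1 and narrow for UTP3, whose first WT fraction is highest and whose S38A fractions are lowest.

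The UTP3 ratio had the same order over the 6 fractions as the spike-in share of their IP libraries. That share was 1.44% in the second S38A IP library, 2.15% in the first, 2.57% in the second WT library, 3.79% and 5.18% in the first and second of S38D, and 5.43% in the first of WT. The UTP3 ratio over the same sequence was 2.46, 2.72, 3.91, 4.79, 6.23 and 9.66. IP depth ran in exactly the opposite order, with 7430881 gene counts at one end and 3186164 at the other, so spike-in share and depth cannot be told apart. Within each of the 3 lines the fraction with the larger share also had the larger UTP3 ratio, as it had for 14.8% of all genes tested and 35.7% of the genes called and at least 2-fold higher in IP. This order was looked for after the values were seen. By differences in log2 CPM, 342 of the 16920 genes tested (2.02%) had it, as did 68 of the 325 genes (20.9%) that were called and at least 2-fold higher in IP, while the reverse order was found in 73 and 0 genes. For TCHH the larger share went with the larger ratio in 2 of 3 lines, S38D being the exception, and for MADCAM1 in 2 of 3, WT being the exception. The part of spike-in share or depth in the recovery of these transcripts was not tested.

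**Figure D4:**
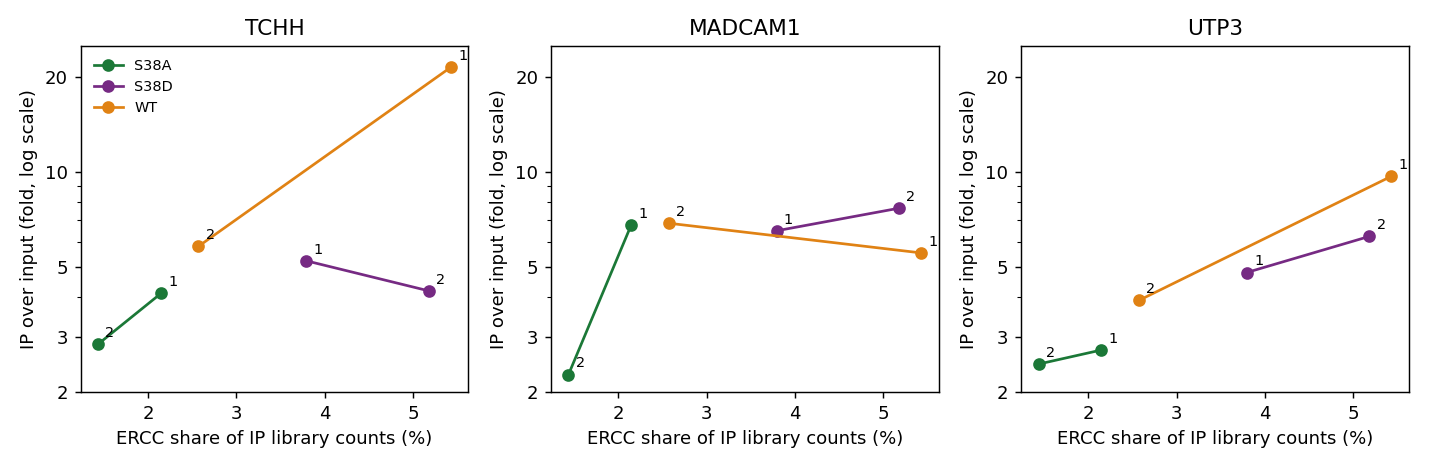
IP over input (log scale) against the ERCC share of IP library counts, with the 2 fractions of a line joined and numbered by replicate. The UTP3 ratio, 2.46 at the lowest share and 9.66 at the highest, follows the share, TCHH does so in S38A and WT, and MADCAM1 stays between 5.53 and 7.66 except in the second S38A fraction at 2.27.

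By line, 0% of genes tested were called higher in S38A, 3.13% in S38D and 5.77% in WT, shares from which nothing is read for members chosen on this contrast. In S38A edgeR called 0 genes in either direction, with 2575 at unadjusted p under 0.05, while DESeq2 called 463. With the shared fraction as a replicate block edgeR called 2079 in S38A, 3379 in S38D and 4818 in WT, against 0, 824 and 1903 without it. The fitted log2 change of TCHH was 1.67 (SE 0.59) in S38A, 2.18 (SE 0.65) in S38D and 3.67 (SE 0.67) in WT. Without the first WT IP library the WT value was 2.57. MADCAM1 changed by 1.94 (SE 0.61) in S38A, 2.76 (SE 0.60) in S38D and 2.54 (SE 0.57) in WT. UTP3 changed by 1.38 (SE 0.32) in S38A, 2.47 (SE 0.33) in S38D and 2.70 (SE 0.34) in WT. All 3 genes had their smallest change in S38A, the line with the lowest spike-in shares and the deepest IP libraries. The order of S38D and WT differed between the genes, and the 95% intervals of these lines overlapped for each of the 3 genes. For TCHH they were 0.77 to 3.58 in S38D and 2.23 to 5.12 in WT. Leaving out a single library undid the place of S38A as the smallest change for TCHH and MADCAM1. In S38A, TCHH was 2.53 without the second input, above its 2.17 in S38D. In S38D, MADCAM1 was 1.91 without the first IP library, below its 1.94 in S38A, and 3.75 without the first input. For UTP3, S38A stayed lowest whichever library was left out.

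Whether recovery differed between the lines was given by the difference in IP over input, in the same fit of all 12 libraries. That fit takes no account of the fraction shared by an IP library and its input, so the intervals below are unpaired. For S38A versus WT the log2 difference was -2.00 for TCHH (95% interval -3.93 to -0.07, not adjusted over genes), -0.60 for MADCAM1 (-2.44 to 1.24) and -1.32 for UTP3 (-2.30 to -0.34). For S38D versus WT it was -1.50 for TCHH (-3.53 to 0.53), 0.22 for MADCAM1 (-1.52 to 1.96) and -0.23 for UTP3 (-1.20 to 0.74). For S38D versus S38A it was 0.50 for TCHH (-1.39 to 2.39), 0.82 for MADCAM1 (-1.06 to 2.70) and 1.09 for UTP3 (0.11 to 2.07). The members were chosen on IP over input in these same libraries, so these differences and intervals are a description and no test. The S38A and S38D comparisons with WT share the WT libraries. Without the first WT IP library the S38A versus WT difference was -0.93 for TCHH and -0.77 for UTP3, and the S38D versus WT difference of TCHH was -0.42. With 1 library left out in turn, 4 of these 9 differences took both signs. For S38D versus WT, MADCAM1 ranged from -0.63 without the first S38D IP library to 1.22 without the first S38D input, and UTP3 from -0.66 without the second WT IP library to 0.33 without the first. For S38D versus S38A, TCHH ranged from -0.36 without the second S38A input to 1.03 without the first, and MADCAM1 from -0.03 without the first S38D IP library to 1.81 without the first S38D input. In these contrasts 0 of 16920 genes (0%) passed in edgeR, members included, with 393, 134 and 109 genes at unadjusted p under 0.05, and DESeq2 also called 0. With the fraction as a replicate block edgeR again passed 0, with 1177, 460 and 578 genes at unadjusted p under 0.05. In that paired fit the S38A versus WT difference was -1.97 for TCHH, -0.67 for MADCAM1 and -1.25 for UTP3. The intervals leave room for differences of more than 2-fold in either direction for MADCAM1, and a miss of the threshold does not show that the lines recovered these transcripts alike.

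Input levels were compared to ask whether the 3 transcripts already differed between lines in the 80S fractions, which the choice of the members did not use directly. In bulk RNA a change per cell and a change in the share of cells carrying a transcript cannot be told apart. UTP3 averaged 56.0 ± 13.4 CPM in S38A input, 78.2 ± 5.93 in S38D input and 79.0 ± 10.6 in WT input (SD, n = 2 each). Its log2 difference was -0.47 for S38A versus WT (SE 0.18, adjusted p = 0.27 in edgeR), 0.01 for S38D versus WT (SE 0.18, adjusted p = 1.00) and 0.48 for S38D versus S38A (SE 0.18, adjusted p = 0.96). The 95% interval of UTP3, not adjusted over genes, was -0.89 to -0.06 for S38A versus WT and 0.07 to 0.89 for S38D versus S38A. Both excluded 0, though neither difference passed after adjustment. TCHH averaged 2.13 ± 1.36 CPM in S38A input, 1.46 ± 0.517 in S38D and 1.02 ± 0.0370 in WT. Its log2 difference was 1.07 for S38A versus WT (SE 0.57, adjusted p = 0.40 in edgeR), and 0.21 without the second S38A input. MADCAM1 averaged 1.30 ± 0.491 CPM in S38A input, 1.60 ± 1.14 in S38D and 2.74 ± 1.28 in WT, and its log2 difference was -1.06 for S38A versus WT (SE 0.59, adjusted p = 0.43 in edgeR). The other S38D comparisons of TCHH and MADCAM1 lay between -0.76 and 0.53 with edgeR adjusted p of 0.96 or more. No member passed in any of the 3 input comparisons, in which 0%, 0.00598% and 0.00598% of 16728 genes were called. For S38A versus WT, where edgeR called 0 genes, 2566 had an unadjusted p under 0.05 and DESeq2 called 419.

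**Figure D5:**
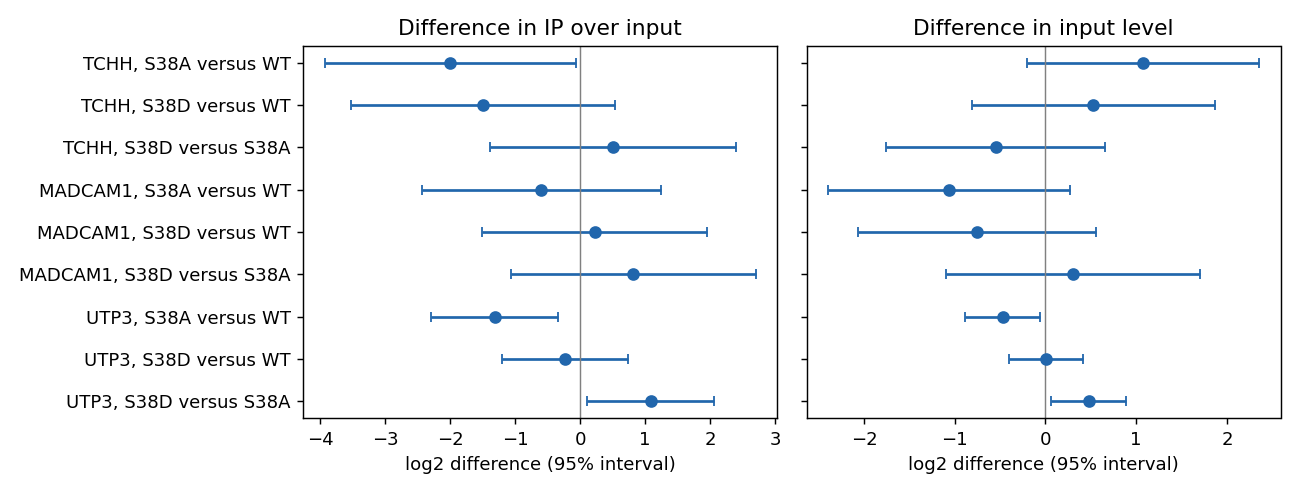
Log2 differences between lines with 95% intervals, not adjusted over genes, for IP over input (left) and for input level (right). Most intervals include 0, and those of UTP3 are the narrowest. On the left, TCHH and UTP3 in S38A versus WT and UTP3 in S38D versus S38A exclude 0. The members were chosen on IP over input, so the left side is a description. On the right, the UTP3 intervals of S38A versus WT (-0.89 to -0.06) and S38D versus S38A (0.07 to 0.89) exclude 0, and neither passed after adjustment.

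Over the 12 libraries, the gene whose log2 CPM was most like that of UTP3 was ENSG00000125352.4, with a Pearson r of 0.996, a log2 change of 1.64 in IP versus input (SE 0.16) and means of 82.3 CPM in IP and 24.3 CPM in input. The next 2 genes had r of 0.994 and 0.993. For MADCAM1 the 3 most similar genes had r of 0.988, 0.982 and 0.981, and for TCHH 0.975, 0.974 and 0.974. All 9 were called higher in IP, with log2 changes of 0.37 to 1.64, as were 15.9% of all genes tested. They were picked for likeness to genes chosen on this rise, so nothing follows from that count. The points of these correlations share libraries, depth and the IP-input difference itself, so they are a description of similarity over 13104 genes with a mean CPM of at least 5.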

How the data were processed

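Each library's table, as deposited by the authors, holds raw counts for 57820 Ensembl identifiers and 92 ERCC sequences. The submitters' processing notes name bcl2fastq (2.16.0.10), STAR (2.4.2a), DESeq2 and the hg19 build. The counter, its strand setting and the annotation release are not stated there or in the labels. Members, gene lists and tests were chosen with earlier results of these data known. Of 59792 reference genes 0 carried an Ensembl identifier, so the 6 gene lists, the cell type markers and RPL12, fixed by symbol, were not analysed here. The members' names came with their identifiers, the other genes are unnamed, and only 2 of their identifiers are printed.

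Counts were tested with edgeR 4.0.16 in R 4.3.3, with filterByExpr at a minimum count of 10, TMM scaling without ERCC counts, glmQLFit and glmQLFTest, and Benjamini-Hochberg adjustment within each of 10 comparisons. IP comparisons used all 12 libraries and input comparisons the 6 inputs. Standard errors are the log2 change divided by the square root of F. Normalised CPM uses TMM-scaled totals, and log2 CPM a prior count of 2. Fraction ratios have exact Clopper-Pearson intervals at 95% for counting error. The named genes were the members, their neighbours in rank and, for each, the 3 most correlated genes with mean CPM of at least 5. The fit was tried on simulated data for IP versus input over the 3 lines and for S38A versus WT in inputs. Those simulated libraries were independent and had the trend spread. The shared fractions, the members' wider spread and the differences in IP over input between lines were thus not covered.

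Same-numbered IP and input libraries share a fraction, per the labels' protocols, and were paired by number on that ground. Their deviations correlated at 0.64 in S38A, 0.54 in S38D and 0.28 in WT. Same-numbered inputs of different lines, which share no fraction, correlated at -0.07, 0.22 and 0.11. The WT correlation is little above these and does not by itself establish the pairing in WT. Replicates differed beyond sampling noise in every group, with chi-square of 5.39 to 16.0 per degree of freedom. The alternatives tried comprised total counts, RLE size factors, DESeq2 1.42.0, no filter, the replicate block, spike-in scaling of the inputs and leaving out each library.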

Additional observations from a re-analysis of the deposited data

Results flagged for a closer look

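Across the 6 fractions, the log2 ratio of TCHH in IP over input had 1 value far from the others, the first WT fraction at 4.42, with a gap of 0.647 of the whole range. For MADCAM1 it was the second S38A fraction at 1.18, with a gap of 0.731 of the range. These were 2 of 9 sets of 6 values examined for such gaps. A rate of about 1 in 20 would hold for independent values drawn alike. Here the fractions come from 3 lines, the ratios reuse the IP and input values, and the members were chosen on them. That rate is therefore no yardstick for these gaps. Spike-in RNA, which entered the gene comparisons only as an alternative scale for the inputs, made up 3.43% of IP counts on average, above its range of 0.116% to 0.484% in inputs.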

How the results depend on the processing

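The log2 rise in IP over the 3 lines was positive in all 17 alternatives for each member, at 2.12 to 2.79 for TCHH, 2.13 to 2.74 for MADCAM1 and 1.96 to 2.33 for UTP3, and moved by less than the SD between fractions. With the fraction as a replicate block it was 2.51, 2.42 and 2.15. Counts of genes called moved more, and the cause was not tested. With the replicate block they were 2079 in S38A (0 without it), 3379 in S38D (824) and 4818 in WT (1903) for IP versus input. With total counts they were 7 (0 higher and 7 lower), 1622 (242 and 1380) and 2928 (484 and 2444), against 0, 824 (530 and 294) and 1903 (976 and 927). DESeq2 called 463 in S38A and 1698 in S38D, and no filter gave 399 and 1555. For IP over input, no filter gave 39 for S38A versus WT and 1 for S38D versus WT, where 0 passed with the filter. For inputs, S38A versus WT had 419 with DESeq2 and 924 with no filter, against 0. S38D versus WT, with 1 call, had 10 and 87, and S38D versus S38A, with 1, had 2 and 49, and both had 0 with the number as a replicate block and 0 with spike-in scaling. The input numbers share only a number across lines, with deviations correlated at -0.07, 0.22 and 0.11.

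With 1 library left out, calls ranged from 4007 to 5770 for IP versus input over the 3 lines, 0 to 139 in S38A, 0 to 1809 in S38D and 0 to 2869 in WT. They ranged from 0 to 293 for IP over input in S38A versus WT, highest without the second WT IP library. For inputs the ranges were 0 to 495, highest without the first S38A input, for S38A versus WT, 0 to 14 for S38D versus WT and 0 to 9 for S38D versus S38A. No input difference of a member passed under an alternative that gave an adjusted p, which DESeq2 did not for TCHH and MADCAM1 in S38A versus WT, and some changed sign. With spike-in scaling MADCAM1 was -0.19 for S38D versus S38A, and for S38D versus WT TCHH was -0.17 and UTP3 -0.75, while the median of all genes in S38D versus WT was -0.83. With 1 library left out MADCAM1 ranged from -0.70 to 0.89 and TCHH from -1.08 to 0.32 for S38D versus S38A, and UTP3 from -0.12 to 0.14 for S38D versus WT. Depth limits TCHH and MADCAM1 most, with 7 to 33 counts per input library.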
